A study of Mus musculus with 17 samples.

Results

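Hemopexin (Hpxn on the array, Hpx in RefSeq) and Alas1 are the scavenging and the synthesis gene of hepatic heme, and they were measured by 2 of the 284 mouse gene probes of a focused liver cDNA microarray. Both were picked by name, with their Lean over Fat ratios already known, so the size and sign of those ratios are described below without a test. Tests of the members concern dye, slide series and correlation over pairs. Those of slide series and correlation also use the known ratios. The liver RNA came from 10 Lean and 10 Fat mice, inbred lines developed from 1 base population of CBA, JU and CFLP background by more than 60 generations of selection in opposite directions on body fat percentage. All were males of 14 weeks on maintenance chow, killed after a 4 h fast, and the labels name no allele, drug or diet that differed between the lines. A Lean and a Fat mouse with RNA of like integrity formed a pair, which was hybridised to 2-colour arrays with dye swaps. The paper states that 3 arrays failed its quality control and that 17 were kept. These 17 held 7 pairs on 2 arrays with the dyes exchanged and 3 pairs on 1 array. Each line is 1 inbred line, so the replicates are mice of that line and not separately selected lines.

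Heme is the iron porphyrin that carries oxygen in hemoglobin and sits in the active site of every cytochrome P450. Alas1, 5-aminolevulinate synthase 1, catalyses the first and rate-limiting step of its synthesis in liver, where much of the product goes into P450 enzymes, and heme in turn represses Alas1. Hemopexin is a plasma glycoprotein that hepatocytes secrete and that binds free heme for return to the liver, with a production that rises in the acute phase response. Heme oxygenase 1, the product of Hmox1, breaks heme down and was the other gene of heme turnover on the array. In the mouse assembly GRCm38.p6, RefSeq places Hpx on chromosome 7 from 105591611 to 105600116, Alas1 on chromosome 9 from 106233455 to 106247954 and Hmox1 on chromosome 8 from 75093618 to 75100593.

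Each probe was printed in 3 spots. A spot was counted as above background when its brightness exceeded the local background by more than 2 SD of that background in both channels, which held for 34.9% to 78.8% of the 855 gene spots of an array (median 58.5%). Both member probes were above background in both channels on 17 of 17 arrays, and no spot of theirs was saturated. All 7 hepatocyte marker probes were above background on most arrays, against 2 of 5 adipocyte, 2 of 4 macrophage, 1 of 4 endothelial and 0 of 2 muscle probes. In liver pieces, fewer cells of a type and less RNA per cell cannot be told apart. Below, a ratio is the log2 of Lean over Fat, averaged over the spots of a probe and then over the arrays of a pair.

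Hemopexin was expressed at a higher level in the Lean than in the Fat mouse in 9 of 10 pairs. Its ratio was 0.45, 0.13, 0.21, -0.02 and 0.06 in pairs 1 to 5. It was 0.14, 0.36, 0.87, 0.27 and 0.36 in pairs 6 to 10. The values thus lay close together, between -0.02 and 0.45, except for pair 8, whose Lean mouse had 1.83 times the hemopexin signal of its Fat partner. The mean was 0.28 ± 0.25 (SD, n = 10), a 1.22-fold higher level in Lean mice, and the median was 0.24. Without pair 8 the mean was 0.22. As background to the count of pairs, 5.28% of the 284 probes had a ratio above 0 in 9 or 10 of 10 pairs and 69.4% had a mean above 0.

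**Figure D1:**
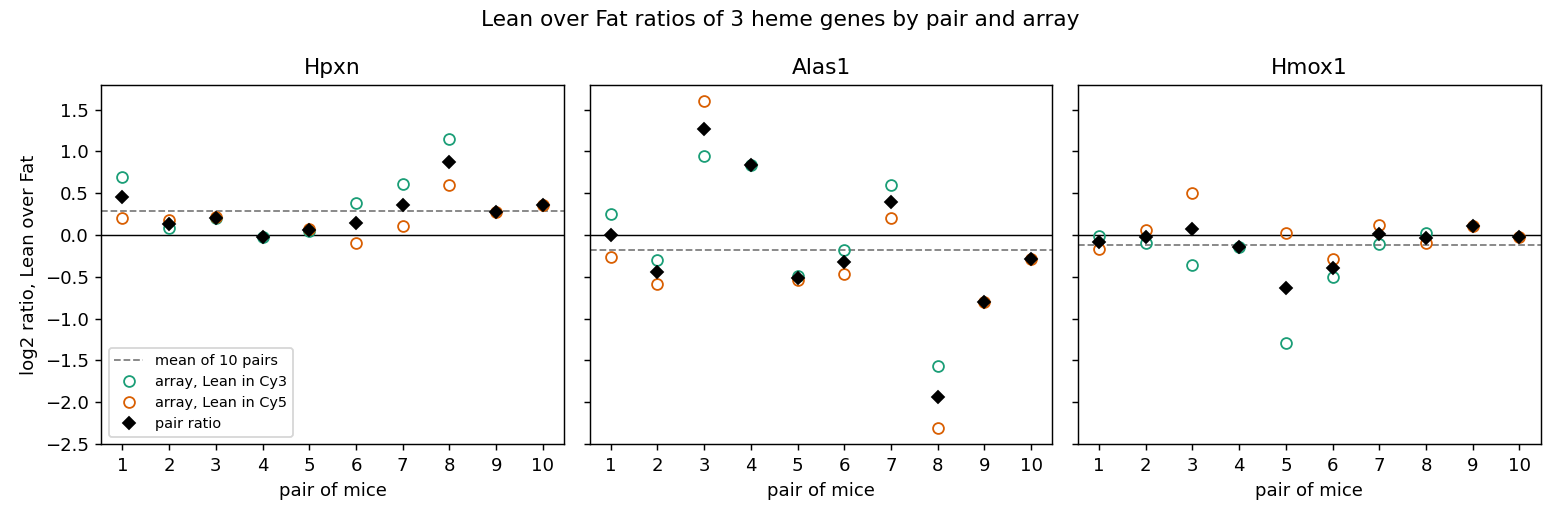
Log2 ratio of Lean over Fat for Hpxn, Alas1 and Hmox1 in each of the 10 pairs; open circles are single arrays coloured by the dye of the Lean sample, diamonds are pair ratios and the dashed line is the mean of 10 pairs. Hpxn lies above 0 in 9 of 10 pairs, Alas1 spreads from -1.94 to 1.27 and the arrays of exchanged dye lie on the same side of 0 in 6 of 7 pairs for both.

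Alas1 had no common direction. Its ratio was -0.0037, -0.45, 1.27, 0.83 and -0.51 in pairs 1 to 5. It was -0.33, 0.40, -1.94, -0.80 and -0.28 in pairs 6 to 10. The Fat mouse had the higher level in 7 of 10 pairs, up to 3.83-fold in pair 8, and the Lean mouse in the other three, up to 2.41-fold in pair 3. The mean was -0.18 ± 0.89 (SD, n = 10), a 1.13-fold higher level in Fat mice, with a median of -0.31, and the spread between pairs was several times the mean. Leaving out pair 8 alone turned the mean to 0.014.

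The spread of Alas1 stood out more than its mean. With an SD of 0.89 over pairs it ranked 2 of 284 probes, below Scd1, the stearoyl-CoA desaturase of lipogenesis, at 1.04, and above Ppp1r3c, a glycogen-targeting phosphatase subunit, at 0.79 and G6Pase, the last enzyme of glucose output, at 0.78. These comparison genes were chosen after their values were seen. The median SD of all probes was 0.21, and hemopexin at 0.25 ranked 108. Under median centring this contrast was lost, with 0.77 for hemopexin (rank 13) and 0.85 for Alas1 (rank 6). An SD above 0.5 was found for 5.28% of probes. Alas1 exceeded 0.3 in either direction in 8 of 10 pairs and hemopexin in 4. Without pair 8 the SD of Alas1 was 0.69 and ranked 7, and that of hemopexin was 0.15 and ranked 230. Of the 284 probes, 167 were above background in both channels on most arrays, so many of those ranked were dim. With dim spots left out Alas1 ranked 5 of 206 probes, where the median SD was 0.25. Under plain background subtraction it ranked 53 of 284, where the median SD was 0.54.

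**Figure D2:**
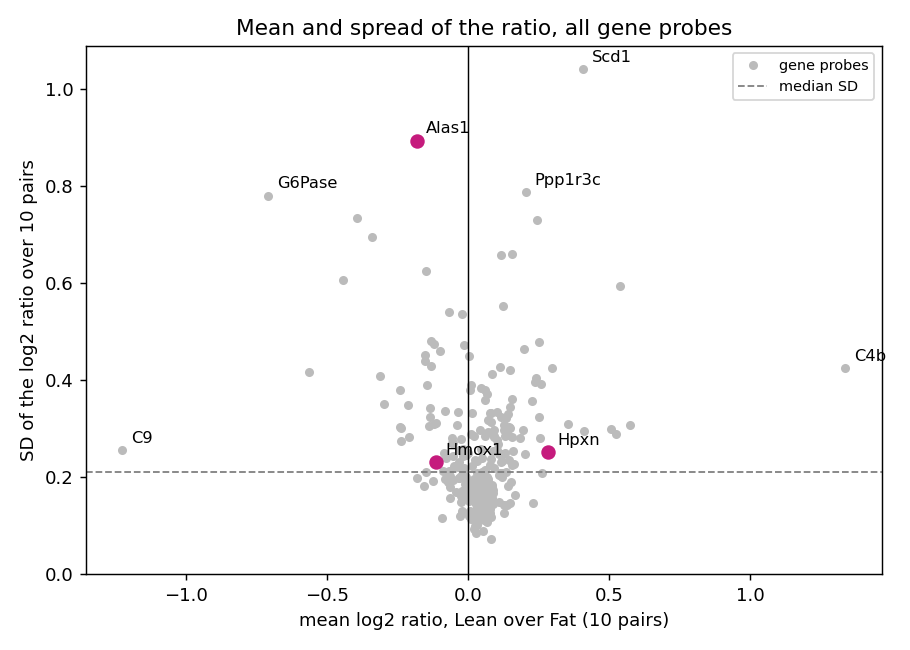
Mean of the log2 Lean over Fat ratio (horizontal) and its SD over 10 pairs (vertical) for each of 284 gene probes, with the 3 heme genes in magenta and the median SD dashed. Alas1, at a mean of -0.18 and an SD of 0.89, lies among the probes of widest spread, while Hpxn and Hmox1 lie near the median SD of 0.21.

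The 7 dye-swapped pairs, in which the same RNAs were labelled both ways, allowed the spread between pairs to be set beside that between arrays. For Alas1 the SD between the arrays of a pair was 0.33 and that between the swapped pairs was 0.98, a ratio of 2.93, the 2nd highest of 284 probes, for which the median ratio was 0.58. For hemopexin these SDs were 0.27 and 0.28, a ratio of 1.04 with rank 40, also above the median ratio. The SD between arrays is on the scale of a single array. It was computed without removing the mean difference between the dye orientations, so it includes any dye effect common to the pairs. The SD between pairs is that of the mean of both arrays. Like values of these SDs therefore do not mean a like spread. The SD of the 3 spots of a probe on an array had a root mean square over arrays of 0.13 for Alas1 and 0.064 for hemopexin. It was largest for both on the pair 8 array with Lean in Cy3, at 0.49 and 0.19. In pair 8, Alas1 was at -1.57 with the Lean sample in Cy3 and at -2.31 with it in Cy5, and hemopexin was at 1.14 and 0.59. In pair 3, Alas1 was at 0.94 and 1.60. The arrays of a swapped pair had the same sign in 6 of 7 pairs for Alas1, pair 1 being the exception with 0.25 and -0.26. The same count held for hemopexin, where the exception was pair 6 with 0.38 and -0.09.

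Neither member showed a dye effect that passed the test. The dye contrast, the ratio with Lean in Cy5 minus that with Lean in Cy3 divided by 2, was -0.13 ± 0.096 (SE, n = 7) for hemopexin (limma, adjusted p = 0.280; exact sign-flip permutation p = 0.125). For Alas1 it was -0.11 ± 0.097 (limma, adjusted p = 0.356; exact sign-flip permutation p = 0.203). The 2-sided sign-flip test of 7 pairs can reach 0.0156 at the smallest. By limma, 0 of the 2 members were called against 2.11% of all probes. The sign of both contrasts turned under other array normalizations, with 0.085 and 0.071 under LOWESS on all gene spots, and both passed under median centring, with 0.79 and 0.59.

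The signal of each mouse, placed on a common scale across arrays, was set beside the ratios. Both mice of a pair share its arrays, so a shift of a probe on those arrays would move both signals. Such a shift cannot be told apart from the levels of the mice. Hemopexin had a log2 signal from 12.26 to 13.43 (median 13.02) in Lean and from 12.12 to 13.16 (median 12.71) in Fat mice. The lines overlapped widely, with 7 of 10 Lean mice inside the range of the Fat mice. The Fat mouse of pair 8 had the lowest hemopexin signal of all 20 mice, 12.12, while its Lean partner, at 12.99, was in the middle of its line. The Lean mouse of pair 2 was the lowest of its line at 12.26, next to a Fat partner at 12.14. On the pair 2 array with Lean in Cy3, 34.9% of gene spots were above background, the lowest share of all arrays.

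For Alas1 the log2 signal ran from 8.94 to 11.36 (median 10.08) in Lean mice and from 9.44 to 11.65 (median 10.31) in Fat mice, and 8 of 10 Lean mice lay inside the range of the Fat mice. Those ranges span 5.34-fold and 4.63-fold, against 2.25-fold and 2.06-fold for hemopexin. The Alas1 signals within 1 line thus differed more from each other than the line means did, which were 10.22 ± 0.82 and 10.41 ± 0.70 (SD, n = 10 each). Partners were both high in pair 5 (Lean 11.14, Fat 11.65) and both low in pair 6 (Lean 9.21, Fat 9.54). How much of the spread the shared arrays made was not tested. Among all probes the SD of Alas1 ranked 9 in Lean and 14 in Fat mice, where the median probe had 0.31 and 0.28. In pair 8 the Lean mouse, at 8.94, had the lowest Alas1 signal of all 20, and the Fat mouse, at 10.88, the 3rd highest of its line. In pair 3 the Lean mouse was the highest of its line at 11.36 and the Fat partner, at 10.09, was below the middle of its own. Levels of different probes on this scale are not compared with each other.

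**Figure D3:**
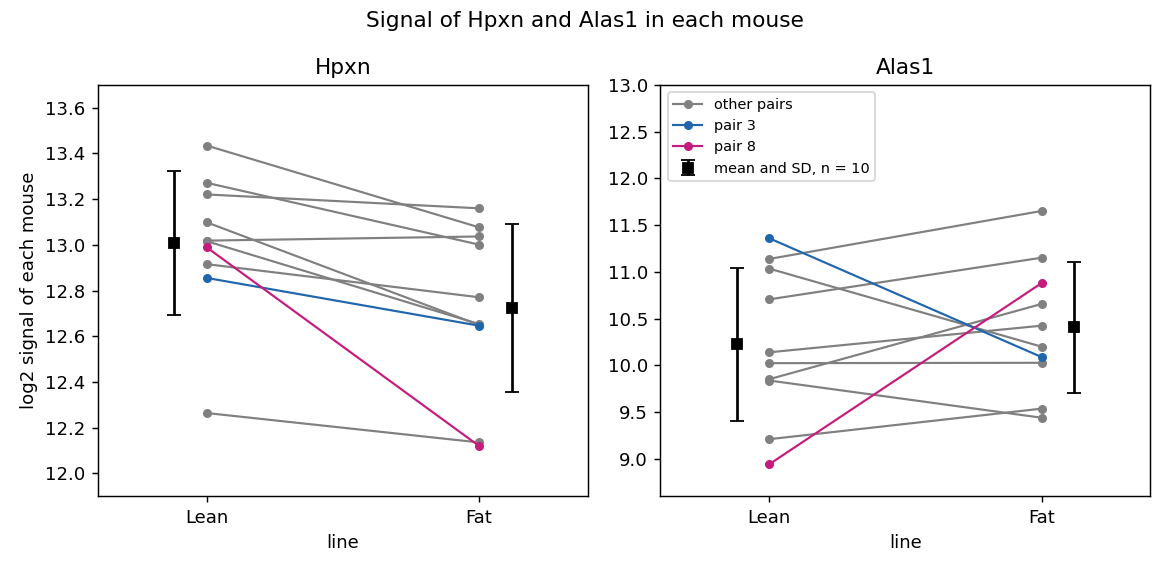
Log2 signal of Hpxn (left) and Alas1 (right) in the 10 Lean and 10 Fat mice, with a line joining the mice of a pair and black squares giving mean and SD; the vertical axes differ in range. The lines overlap for both genes, and pair 8 (magenta) falls from Lean to Fat in Hpxn and rises in Alas1, while pair 3 (blue) falls in Alas1.

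Scavenging was set against synthesis as the hemopexin ratio minus the Alas1 ratio. This difference was 0.45, 0.57, -1.06, -0.85 and 0.57 in pairs 1 to 5. It was 0.47, -0.04, 2.81, 1.08 and 0.64 in pairs 6 to 10. The difference, which is of RNA only, was above 0 in 7 of 10 pairs, with a median of 0.52 and a mean of 0.46 ± 1.07 (SD, n = 10). Its wide spread followed that of Alas1, the more variable member. It was below 0 in pairs 3, 4 and 7, the same pairs in which Alas1 was above 0. Without pair 8 the mean difference was 0.20.

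Across the 10 pairs the hemopexin and Alas1 ratios had a Pearson r of -0.61 (permutation p = 0.0713, 0.214 after Benjamini-Hochberg adjustment over 3 relations) and a Spearman rho of -0.18 (permutation p = 0.632, adjusted 0.734). The ratios were known when the members were picked, so these p-values are not independent support for a relation. Leaving out pairs 4 and 8, the 2 farthest from the median of hemopexin, gave r = 0.21 over 8 pairs, so the negative value rested on those pairs. Without pair 8 alone r was -0.11. The slide numbers fell into 2 series of 5 pairs each, A and B, and r was 0.14 in A and -0.89 in B, which holds pair 8; these values within a series are given without a test. Under median centring r over the 10 pairs was -0.02, and under LOWESS on all gene spots it was -0.81 (permutation p = 0.00826). The members themselves did not differ between the slide series beyond the spread of pairs: hemopexin had means of 0.22 and 0.34 (exact permutation p = 0.524) and Alas1 of -0.10 and -0.26 (exact permutation p = 0.794). Both arrays of pair 8 had 48.9% and 59.6% of gene spots above background, within the range of the others. On its array with Lean in Cy3, however, the spots of each member differed more than on any other array (SD 0.49 for Alas1 and 0.19 for hemopexin).

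**Figure D4:**
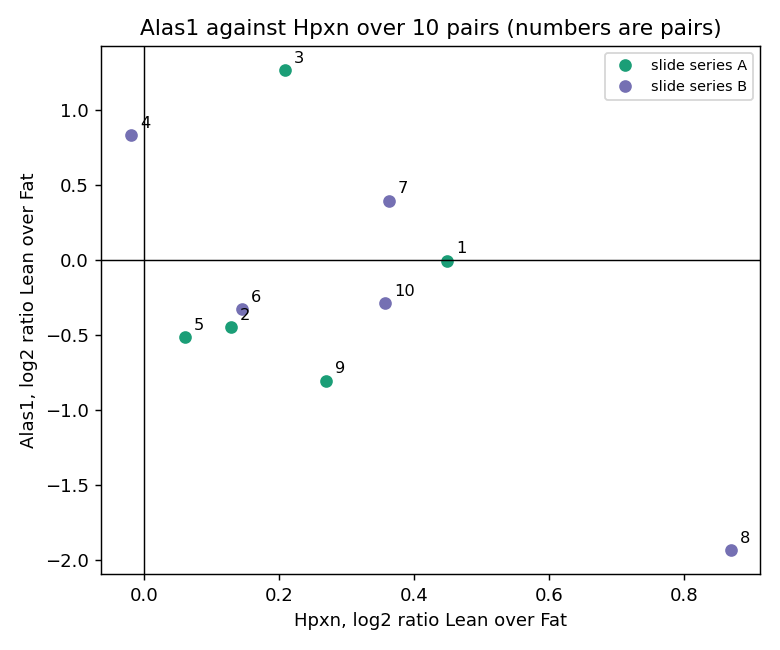
Log2 Lean over Fat ratio of Alas1 (vertical) against that of Hpxn (horizontal), 1 point for each of the 10 pairs, numbered and coloured by slide series. Pair 8 lies far to the lower right at 0.87 and -1.94, and r over the 10 pairs is -0.61 with it and -0.11 without it.

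Hmox1, the heme-degrading gene, did not pass the test between the lines, and its probe was dim. It was above background in the Lean channel on 4 and in the Fat channel on 8 of 17 arrays. Its ratio ran from -0.64 to 0.11 with a median of -0.03 and was above 0 in 3 of 10 pairs. The mean was -0.11 ± 0.071 (SE, n = 10; limma, adjusted p = 0.541; exact sign-flip permutation p = 0.158). Arrays of exchanged dye had the same sign in only 2 of 7 pairs, and the lowest value, pair 5, came from -1.30 on one array and 0.02 on the other. Its r with hemopexin was 0.38 (permutation p = 0.256, adjusted 0.385; rho 0.39, permutation p = 0.263; 0.59 without pairs 4 and 8) and with Alas1 0.12 (permutation p = 0.723, adjusted 0.723; rho 0.13, permutation p = 0.734; 0.11 without pairs 3 and 8).

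Of the 284 probes, 10 passed the adjusted threshold of 0.05 in limma for Lean against Fat, which is 3.52%; 8 were higher in Lean (2.82%) and 2 lower (0.704%). Hepatocytes secrete hemopexin together with many other plasma proteins, and 16 probes measured such genes. Complement C4b at 1.34 ± 0.12 (SE; limma, adjusted p = 4.42e-06) and the pentraxin Crp at 0.23 ± 0.054 (SE; limma, adjusted p = 0.0307) were higher in Lean mice, and complement C9 at -1.23 ± 0.077 (SE; limma, adjusted p = 1.37e-07) was lower. The call for Crp was lost in 13 of 23 other settings, and those for C4b and C9 in 0. The list's median ratio was 0.06, near the 0.04 of all probes, so that hemopexin at 0.28 lay above the middle of its list. Of the 7 probes for signalling and transcription genes of the acute phase response, such as Stat3, Cebpd and the glucocorticoid receptor Nr3c1, 0 passed. The largest value was 0.16 for Nr3c1. Only 4 of the 7 were above background in both channels on most arrays, and Nr3c1 was so on 5 of 17.

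The genes that control Alas1 or use what it makes were counted beside the 3.52% of all probes that passed. Known regulators of Alas1 had 9 probes, among them the coactivator Ppargc1a, the xenobiotic receptors Nr1i2 and Nr1i3, and Foxo1. Of these 9, 0 passed, and the largest value was -0.15 for Nr1i3 (limma, adjusted p = 0.584). In both channels, 6 of the 9 were above background on most arrays. Of 40 cytochrome P450 probes, 2 passed, both higher in Lean mice: Cyp8b1, the sterol 12-alpha-hydroxylase of bile acid synthesis, at 0.52 ± 0.084 (SE; limma, adjusted p = 0.00208) and the drug-metabolising Cyp1a2 at 0.51 ± 0.087 (SE; limma, adjusted p = 0.00301). Their calls were lost in 3 and 5 of 23 other settings. The P450 list had a median of 0.02. Of 5 probes for other heme enzymes, 0 passed, the largest being 0.13 for Ptgis, prostacyclin synthase, but only 1 was above background in both channels on most arrays. The last list shares Ptgis and Tbxas1 with the P450 list.

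Among 166 probes above background in both channels on most arrays, those whose ratios ran most like hemopexin over the 10 pairs were Orm1 (r = 0.87), Apoa4 (0.86) and complement C3 (0.81), where the median probe had 0.09. Orm1 encodes the acute phase protein orosomucoid and Apoa4 an apolipoprotein of triglyceride-rich particles. Orm1 was at 0.50 in pair 8, its highest value, and below 0 in 7 of 10 pairs, so it ran with hemopexin around a lower mean of -0.22. Without pair 8 the r of these 3 probes was 0.70, 0.87 and 0.58. The order depended on the normalization: under LOWESS on all gene spots Orm1 stayed first at 0.87, but Apoa4 fell to rank 10 (0.56) and C3 to rank 25 (0.44), behind C4b and C4bp at ranks 2 and 3. All 16 plasma protein probes had an r above 0 with hemopexin, with a median of 0.55, against 192 of the 282 probes other than the members (68.1%). Without pair 8 the counts were 14 of 16 and 83.3%, with C4bp at -0.42 and Alb1 at -0.22 below 0, and under LOWESS on all gene spots 13 of 16 and 46.5%. In pair 8, 5 of the 16 had their highest ratio, against 5.32% of the 282. The lowest r was that of Foxa2, a hepatocyte transcription factor, at -0.68, but it was -0.49 without pair 8 and -0.07 (rank 87) under LOWESS on all gene spots. Array-wide differences between pairs are shared by all probes of an array, so these values are a description.

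**Figure D5:**
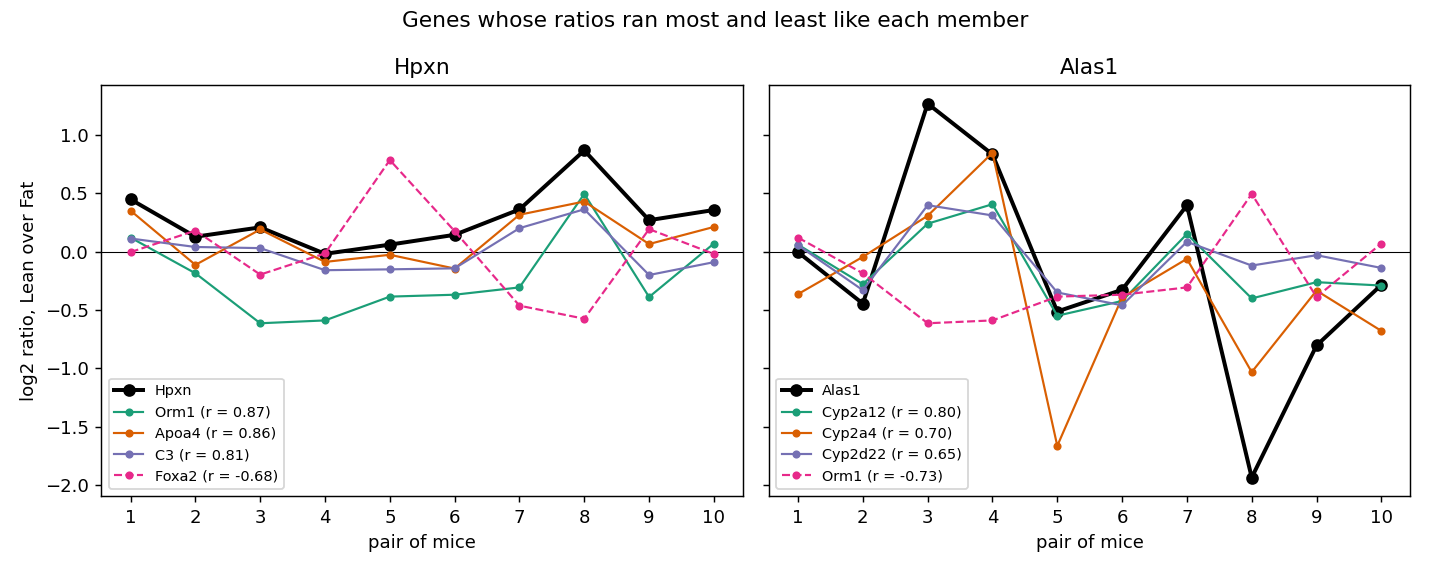
Log2 Lean over Fat ratio by pair for Hpxn (left) and Alas1 (right) in black, with the 3 probes of highest r in solid and the probe of lowest r in dashed colour; lines only join the values of a gene, since pairs have no order. The 3 P450 genes on the right have the sign of Alas1 in 8 of 10 pairs, all but 1 and 7, and reach less far below 0 in pair 8, where Alas1 is at -1.94.

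The ratios most like those of Alas1 belonged to 3 cytochrome P450 genes: Cyp2a12 (r = 0.80), Cyp2a4 (0.70) and Cyp2d22 (0.65), where the median probe had 0.17. In pair 3 they were at 0.24, 0.31 and 0.40, all above 0 as was Alas1 at 1.27. In pair 8 they were at -0.40, -1.03 and -0.12, all below 0 beside Alas1 at -1.94. Without pair 8 the r was 0.86, 0.68 and 0.83, so these values did not rest on that pair. Under LOWESS on all gene spots Cyp2a12 stayed first (0.85), Cyp2a4 was at rank 5 (0.67) and Cyp2d22 at rank 17 (0.51), and the nuclear receptor probe Nr1a2 was second (0.75). The P450 list as a whole was closer to the background, with an r above 0 for 85.0% of 40 probes and a median of 0.30, against 77.3% of the 282 probes. These shares were 72.5% and 70.9% without pair 8, and 65.0% and 53.9% under LOWESS on all gene spots. Its lowest ratio fell in pair 8 for 8 of 40 probes, against 10.3% of the 282. The lowest r with Alas1 was that of Orm1, at -0.73, or -0.47 without pair 8. Cyp2a12, Cyp2a4, Cyp2d22, Orm1 and C4b have close relatives in the mouse genome that a cDNA probe may also bind, so their values may cover several genes. The paper states that cross-reaction within a family holds for its Cyp2a probes, so Cyp2a12 and Cyp2a4 may not be separate measurements.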

How the data were processed

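The 17 arrays held liver RNA from 10 mice of either line. Spot intensity and local background of both channels were deposited by the authors from Array-Pro Analyzer 4.5, without normalization; the dyes and channels of the lines were taken from the labels. A second table, deposited as log2 ratios, came from OWNormalize in Orange, where low-quality spots were dropped and LOWESS was fitted to spike-in controls by the authors; its column medians ran from -0.458 to 0.597, and it correlated with the ratios used here at 0.43 to 0.98 per array, although most ratio controls in that table had the opposite sign, so its direction for them is not settled. Mean pixel values were corrected by normexp (offset 50), and ratios were normalized by control LOWESS (span 0.3) on 13 spike-in types, where 8 of 8 ratio controls kept 1 sign on all 17 arrays. Spots, then arrays of a pair, were averaged. Probes with values in at least 5 pairs entered a 2-sided limma test (version 3.58.1, R 4.3.3) of a mean of 0, with Benjamini-Hochberg adjustment over 284 probes, after the code was tested on simulated data. Single values had exact sign-flip or permutation tests, and correlations 100000 permutations. Signals per mouse were normalized between arrays by Aquantile and averaged over the arrays of a pair.

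Members and gene lists were chosen with earlier results of these data known. Named besides Hpxn, Alas1 and Hmox1 were, in each list, the probes past the threshold (the 3 largest if more) or else the largest, and for each member the 3 highest and the 1 lowest r. The acute phase list had 8 genes, of which 7 were matched to a probe. The other, Nfkbie, is in the paper's gene list of the array but was not matched to a probe name. Alternatives covered background, normalization, spot and pixel averages, the value table, dim spots, pairs used, weights, the methods' t-test and each pair left out; median pixels, and the list correlations without pair 8 or under LOWESS on all gene spots, were added after seeing the data. Array precision is limited by the number of pairs. Measurements by qRT-PCR and of plasma were not analysed here.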

Additional observations from a re-analysis of the deposited data

Results flagged for a closer look

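Among 25 sets of 10 values checked for 1 value far from the rest, 2 were found, where chance gives about 1 in 20. The hemopexin ratio of pair 8, at 0.87, stood apart above the other 9 pairs, the next highest being 0.45. The hemopexin signal of the Lean mouse of pair 2, at 12.26, stood apart below the other Lean mice, the next lowest being 12.86, and its Fat partner was also low at 12.14. Both mice shared the arrays of the pair. That with Lean in Cy3 had 34.9% of gene spots above background, the lowest share of all arrays, and the other had 58.5%. Whether this bears on the signals was not tested.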

How the results depend on the processing

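Hemopexin had a mean above 0 in all 23 settings (0.22 to 0.42; 0.22 to 0.32 with 1 pair left out). Its number of pairs above 0 fell from 9 to 8 of 10 under median centring. That number rose to 10 under plain and no background subtraction and in the value table. Alas1 was below 0 in 22 of 23; with 1 pair left out its mean ran from -0.34 to 0.014. The number of pairs with Alas1 above 0 rose from 3 to 6 of 10 under median centring and to 4 under LOWESS on all gene spots and with median pixels. Its SD was ranked in 10 settings and lay at rank 2 to 7 in 9 of them and at 53 under plain background subtraction. Hemopexin minus Alas1 stayed above 0 (0.32 to 0.61; 0.20 to 0.63 with 1 pair left out). Hmox1 stayed below 0 in 21 settings and passed in 0 (limma, adjusted p = 0.0760 to 0.981; -0.14 to -0.06 with 1 pair left out). Its probe, mostly not above background, moved to -0.71 under plain subtraction. The pair is the unit of the main test; with the pair as a random replicate block and a dye coefficient, 15 probes passed in place of 10, and the means were 0.30 for hemopexin and -0.19 for Alas1.

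Probes passing fell to 6 under plain background subtraction (3 higher), 5 under median centring (3 higher), 5 with the 7 swapped pairs only, 3 and 2 within the slide series and 6 by the methods' t-test after Benjamini-Hochberg. They rose to 18 with array weights and 35 by the methods' t-test unadjusted; with 1 pair left out they ran from 7 to 11. The dye contrast of hemopexin reversed to 0.085 under LOWESS on all gene spots (limma, adjusted p = 0.347) and 0.79 under median centring (limma, adjusted p = 0.00804); that of Alas1 reversed to 0.071 (limma, adjusted p = 0.527) and 0.59 (limma, adjusted p = 0.0173). With 1 pair left out the contrasts ran from -0.16 to -0.11 and from -0.19 to -0.07. The correlation of hemopexin and Alas1 was -0.81 under that LOWESS (permutation p = 0.00826) and -0.02 under median centring (permutation p = 0.954), and with 1 pair left out it ran from -0.69 (without pair 5; permutation p = 0.0459) to -0.11 (without pair 8). The cause of these changes was not tested.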
